A study of Homo sapiens with 4 samples.

Results

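The endoplasmic reticulum (ER) is where secreted and membrane proteins enter the secretory pathway, fold, receive disulfide bonds and N-glycans, and are sent for degradation when they fail to fold. The genes described here are 40 human genes of that machinery, chosen by function: chaperones of the ER lumen, the lectin chaperone cycle, protein disulfide and prolyl isomerases, the translocation channel and its partners, ER-associated degradation, and the sensors of the unfolded protein response with the transcription factor XBP1. A probe set was assigned to a gene when the platform annotation gave it a single gene symbol, and the brightest probe set over the 4 arrays stood for the gene. By this rule 36 of the 40 genes had a value, among 12165 genes measured in all. DNAJB11, CRELD2, SEC61G and SYVN1 were not analysed here. The genes and their grouping were chosen with earlier results of these data known.

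RNA came from Huh-7, a human hepatocellular carcinoma line grown in medium with bovine serum. Of 4 Affymetrix arrays, 2 held total RNA of cells harvested 48 h after addition of transforming growth factor beta (TGF-beta), a growth-inhibitory cytokine whose receptors act on SMAD transcription factors, and 2 held RNA of untreated cells of the same line. The sources used here do not give the dose, and the model is 1 cell line at 1 time after treatment. Nothing in the labels says that the arrays of a group came from separate cultures, and p-values then reflect the spread among these samples alone, part or all of which may be technical. The comparison asks how transcript levels in a liver cancer cell respond to TGF-beta, within a series on subtypes of this cancer.

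Hepatocytes secrete large amounts of plasma protein, and their ER is correspondingly rich in folding and translocation factors. When unfolded protein accumulates, the membrane sensors ATF6, IRE1 (encoded by ERN1) and PERK (encoded by EIF2AK3) start the unfolded protein response. ATF6 and the XBP1 made by IRE1 splicing induce chaperones and degradation factors, while PERK slows translation and favours the transcription factor ATF4, which other kinases also activate when amino acids are short.

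The arrays had similar brightness, with median probe set intensities of 51.0 and 50.7 in TGF-beta-treated cells, against 50.3 and 50.1 in untreated cells. Hepatocyte products were bright, with mean log2 intensities from 10.5 to 15.1 over the 9 markers measured. Of these, APOA1 rose, TTR fell and 7 did not pass limma's test. Markers of other cell types were also measured, 4 of 6 for leukocytes, 5 of 5 for endothelium and 6 of 6 for fibroblasts. Summed leukocyte intensities were 357.7 and 376.4 in TGF-beta-treated cells, against 422.2 and 341.8 in untreated cells. In that list PTPRC and CD68 lay between 26.8 and 33.8 over the 4 arrays. CD14 rose, with 146.4 and 156.6 in TGF-beta-treated cells, against 75.6 and 75.4 in untreated cells (limma adjusted p = 0.0167). CD3D did not pass but was lower, with 154.1 and 162.9 in TGF-beta-treated cells, against 285.3 and 204.2 in untreated cells. Its log2 fold change was -0.61 ± 0.16 (SE, limma adjusted p = 0.109). At an unadjusted p under 0.05, 1 of the 4 leukocyte markers was higher and 1 lower. Summed endothelial intensities were 162.3 and 155.2 in TGF-beta-treated cells, against 167.0 and 165.6 in untreated cells, and 0 of 5 passed (1 lower at an unadjusted p under 0.05). Summed fibroblast intensities were 6981 and 7483 in TGF-beta-treated cells, against 7439 and 6917 in untreated cells, of which LUM alone made up 6777 and 7292 in TGF-beta-treated cells, against 7184 and 6692 in untreated cells. The other 5 fibroblast markers lay between 31.5 and 60.6, and 0 of 6 passed (2 lower at an unadjusted p under 0.05). No marker was at 0, and the part of these markers in the results was not tested. Of 6 TGF-beta-responsive genes, SMAD7, SKIL, SKI, PMEPA1, TGFBI and BAMBI, 0 passed limma's test at an adjusted p under 0.05 and 1, BAMBI, had an unadjusted p under 0.05. All 36 ER genes lay above the lower quartile of probe set intensities. All 6 fibroblast markers did too, so this cut does not show that a gene stood above background. ERN1, between 35.8 and 45.7, and DNAJC3, between 48.8 and 59.3, lay in the range of the dim fibroblast markers.

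None of the 36 ER genes changed past the threshold of an adjusted p under 0.05 in limma's test across all genes, where 1.22% of all genes did (0.658% higher and 0.567% lower). Unadjusted p-values under 0.05 were found for 6: 5 ER genes were higher with TGF-beta (SDF2L1, HYOU1, SEC61A1, DNAJB9 and HSPA5) and 1 was lower (UGGT1). Those counts are 13.9% and 2.78% of the ER genes, where 9.35% of all genes were higher and 8.60% lower by the same count. The median log2 fold change was 0.01 over the ER genes and -0.01 over all genes, and 20 ER genes (55.6%, against 48.6% of all genes) had a positive value and 16 a negative one. After subtraction of each array's median the ER median was -0.07 and that of all genes -0.08, with 11 ER genes positive. That scaling lowered the log2 fold change of every gene by the same amount. The share of all genes positive under it is not given here. Because RNA was taken from whole cultures, a change in RNA per cell and a change in the share of cells that express a gene cannot be told apart.

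The measured differences were small, and their limits cover only the spread among these arrays, part or all of which may be technical. The log2 fold change was under 0.2 in size for 28 of the 36 genes, from 0.2 to 0.4 for 6, and above 0.4 for 2. For 28 genes the 95% interval of the log2 fold change lay within 0.5 of 0, and over all 36 genes the intervals ran from -0.58 to 0.85. The difference between groups was larger than the wider of the 2 replicate gaps in 13 genes and no larger in 23. Both TGF-beta arrays lay above both untreated arrays in 9 of the 36 ER genes and below them in 6, against 23.3% and 25.9% of all genes.

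**Figure D1:**
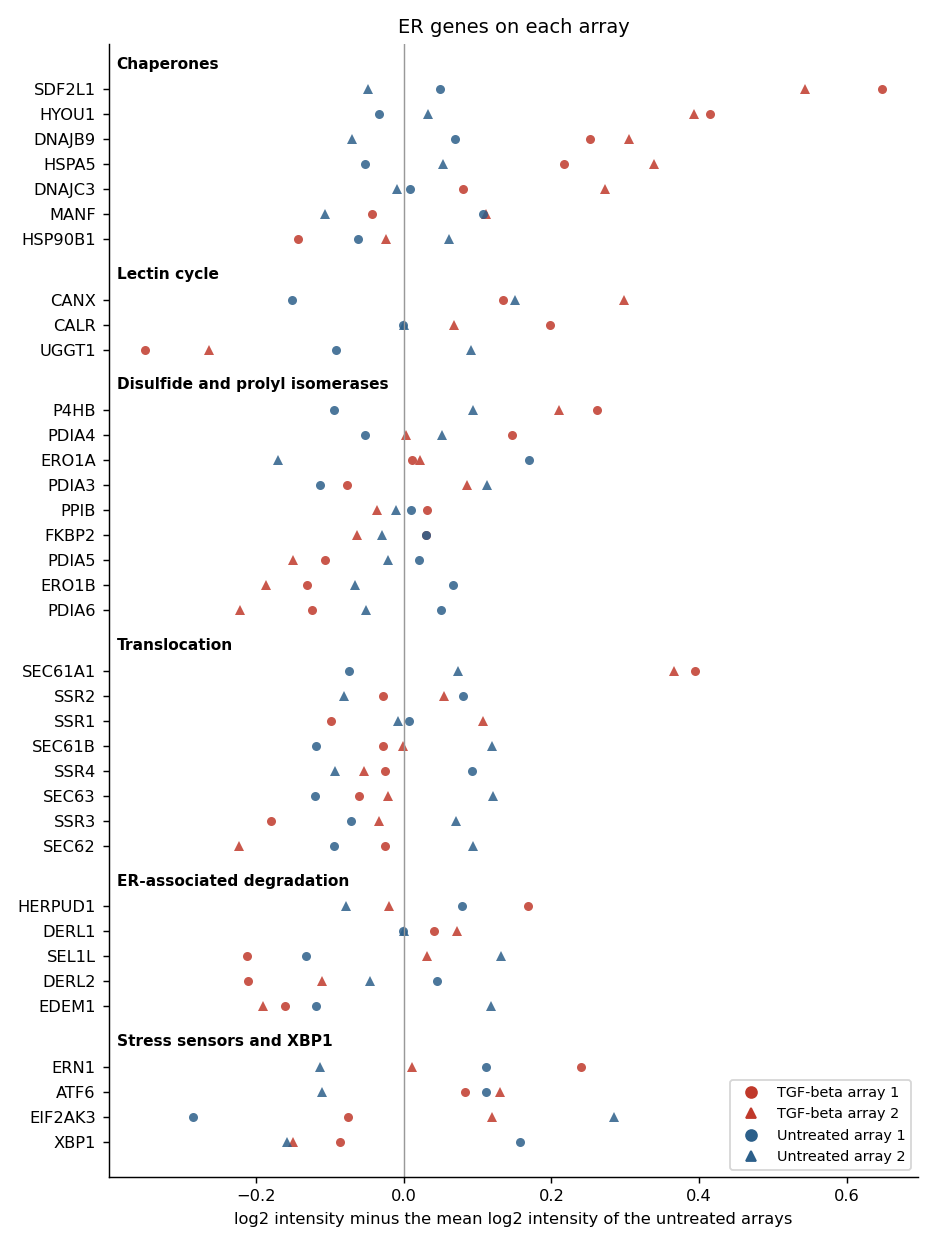
Each row is an ER gene and each symbol an array, plotted as the log2 intensity minus the mean log2 intensity of the untreated arrays (red, TGF-beta; blue, untreated; circles, array 1; triangles, array 2). The TGF-beta arrays stand clear of the untreated arrays on the right for SDF2L1, HYOU1 and SEC61A1, and on the left for UGGT1, while the 4 arrays overlap in 21 of the 36 genes.

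The chaperones of the ER lumen held the 2 largest positive values, those of SDF2L1 and HYOU1. Of 7 measured members, 0 passed limma's test at the adjusted threshold, 4 were higher at an unadjusted p under 0.05, 6 had a positive log2 fold change, and the median was 0.28. Those counts are 57.1% higher by unadjusted p, against 9.35% of all genes, and 85.7% positive, against 48.6%. In 5 of the 7 (71.4%, against 23.3% of all genes) both TGF-beta arrays lay above both untreated arrays, and in 0 they lay below (against 25.9%). The median was 0.31 after quantile normalization of the arrays and 0.20 after subtraction of each array's median. The groups were drawn up with earlier results of these data known, and no test was made of this group as a whole.

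SDF2L1, a partner of BiP that slows aggregation of misfolded proteins, had intensities of 805.8 and 750.0 in TGF-beta-treated cells, against 532.2 and 497.4 in untreated cells. The lowest TGF-beta array was above the highest untreated array. The log2 fold change was 0.60 ± 0.11 (SE, n = 2 per group), a ratio of 1.51, with an adjusted p of 0.0541. Its adjusted p was 0.0418 without untreated array 1 and 0.0458 with the mean of all probe sets of each gene. Over its 9 alternatives without a replicate block it ran from 0.0418 to 0.344, while the value stayed between 0.52 and 0.65.

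HYOU1 (GRP170), a large HSP70-related chaperone that also exchanges the nucleotide of BiP, had intensities of 387.5 and 381.9 in TGF-beta-treated cells, against 284.2 and 297.5 in untreated cells. Replicates differed little in both groups, and the groups did not overlap. Its log2 fold change was 0.40 ± 0.10 (SE), a ratio of 1.32, with an adjusted p of 0.102.

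HSPA5 encodes BiP, the HSP70 chaperone of the ER and the classical marker of the unfolded protein response. Its intensities were 5285 and 5747 in TGF-beta-treated cells, against 4383 and 4714 in untreated cells. The groups did not overlap, and the log2 fold change was 0.28 ± 0.11 (SE, adjusted p = 0.250), with a 95% interval from 0.02 to 0.54. DNAJB9, a J-domain partner of BiP that restrains IRE1, had intensities of 3097 and 3211 in TGF-beta-treated cells, against 2729 and 2477 in untreated cells. This is a log2 fold change of 0.28 ± 0.11 (SE, adjusted p = 0.246), and its other probe set gave 0.27 ± 0.12. DNAJC3 (P58IPK), a further J-domain partner, lay near the median probe set at 51.9 and 59.3 in TGF-beta-treated cells, against 49.4 and 48.8 in untreated cells. Its TGF-beta arrays were the higher ones, by a log2 fold change of 0.18 ± 0.11 (SE, adjusted p = 0.481), and they differed from each other by 0.19.

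The remaining chaperones had values near 0. HSP90B1 (GRP94), the HSP90 of the ER, had intensities of 5868 and 6373 in TGF-beta-treated cells, against 6207 and 6760.0 in untreated cells. The groups overlapped, the log2 fold change was -0.08 ± 0.11 (SE, adjusted p = 0.763), and its other 3 probe sets gave -0.18, 0.08 and -0.19. MANF, a secreted ER stress protein that binds BiP, had intensities of 1371 and 1526 in TGF-beta-treated cells, against 1522 and 1312 in untreated cells. Its log2 fold change was 0.03 ± 0.12 (SE), under the gap between its untreated arrays.

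**Figure D2:**
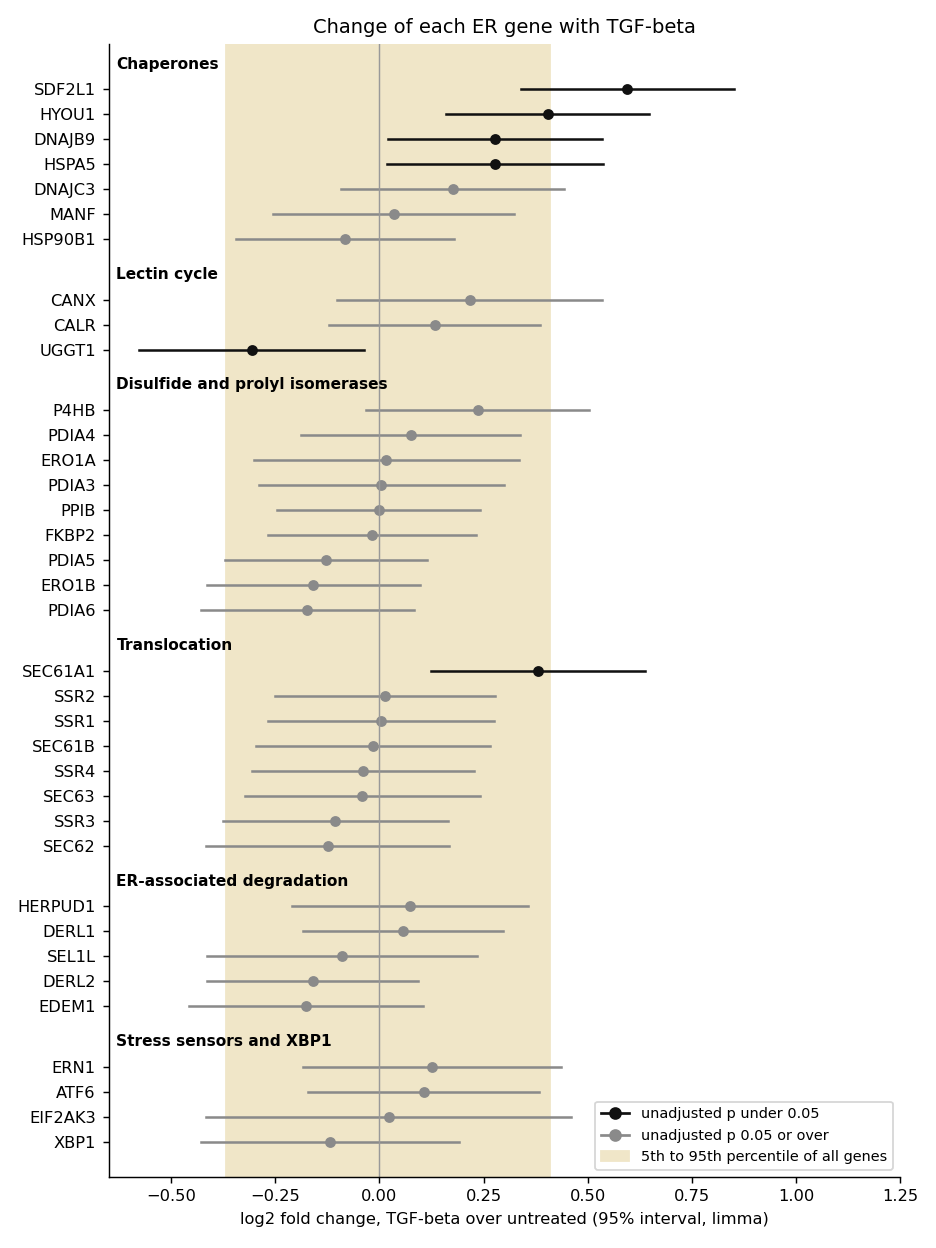
Points are the log2 fold change of TGF-beta over untreated for each ER gene with its 95% interval from limma; black marks an unadjusted p under 0.05, and the shaded band runs from the 5th to the 95th percentile of all genes (-0.37 to 0.41). SDF2L1, at 0.60, lies outside the band, and HYOU1, at 0.40, lies near its edge.

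Promoter sequence is shown for 5 ER genes that carry the textbook ER stress elements, with values from SDF2L1 at 0.60 to HSP90B1 at -0.08. Values of the other ER genes with an element ran from CANX at 0.22 to PDIA6 at -0.17. The ER stress response element (ERSE, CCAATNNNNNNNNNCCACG) is bound by NF-Y together with ATF6, and the related ERSE-II (ATTGGNCCACG) holds the same half-sites in another orientation and spacing. The windows run from 250 bases before to 50 bases after the gene's start and come from RefSeq (GRCh38.p14). They are printed 5′ to 3′ on the gene's strand, and capitals mark the fixed letters of exact matches on either strand. SDF2L1 is at chr22:21642052-21642351 (+), HYOU1 at chr11:119057156-119057455 (-), HSPA5 at chr9:125241294-125241593 (-), HSP90B1 at chr12:103930160-103930459 (+) and HERPUD1 at chr16:56931892-56932191 (+).
SDF2L1: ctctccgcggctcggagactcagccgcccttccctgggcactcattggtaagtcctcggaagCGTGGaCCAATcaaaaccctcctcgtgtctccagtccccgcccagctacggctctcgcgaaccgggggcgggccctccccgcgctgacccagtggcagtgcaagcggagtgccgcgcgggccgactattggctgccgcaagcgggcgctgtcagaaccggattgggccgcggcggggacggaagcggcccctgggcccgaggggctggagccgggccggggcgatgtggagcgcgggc
HYOU1: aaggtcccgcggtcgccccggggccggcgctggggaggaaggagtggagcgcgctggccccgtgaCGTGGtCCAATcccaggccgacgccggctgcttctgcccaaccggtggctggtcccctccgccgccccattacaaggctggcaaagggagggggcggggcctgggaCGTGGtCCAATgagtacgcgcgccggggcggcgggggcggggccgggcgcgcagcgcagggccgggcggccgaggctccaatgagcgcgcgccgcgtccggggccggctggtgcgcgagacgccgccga
HSPA5: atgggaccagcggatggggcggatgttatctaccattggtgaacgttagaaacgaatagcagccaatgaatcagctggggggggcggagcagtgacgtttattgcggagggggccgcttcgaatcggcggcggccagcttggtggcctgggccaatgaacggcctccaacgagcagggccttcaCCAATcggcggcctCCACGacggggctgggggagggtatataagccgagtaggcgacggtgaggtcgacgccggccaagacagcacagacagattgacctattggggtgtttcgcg
HSP90B1: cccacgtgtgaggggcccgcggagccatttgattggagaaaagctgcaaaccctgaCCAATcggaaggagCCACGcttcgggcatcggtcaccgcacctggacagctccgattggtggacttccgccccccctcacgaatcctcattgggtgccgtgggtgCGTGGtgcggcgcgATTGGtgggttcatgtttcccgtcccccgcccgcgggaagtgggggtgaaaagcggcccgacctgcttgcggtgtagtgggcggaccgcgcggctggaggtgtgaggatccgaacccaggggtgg
HERPUD1: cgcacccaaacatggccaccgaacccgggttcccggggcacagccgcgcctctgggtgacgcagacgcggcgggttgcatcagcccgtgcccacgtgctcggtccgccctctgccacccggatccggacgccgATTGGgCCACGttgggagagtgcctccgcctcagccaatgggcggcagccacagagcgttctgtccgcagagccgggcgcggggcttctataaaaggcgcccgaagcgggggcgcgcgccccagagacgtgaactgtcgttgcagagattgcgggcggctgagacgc

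SDF2L1 has 1 ERSE-II, HYOU1 has 2, and HERPUD1 has 1. HSPA5 has 1 exact ERSE and HSP90B1 has 2, in opposite orientations. Exact ERSE matches in other measured ER genes are printed in the orientation of the element, with its fixed letters in capitals and the 9-base spacer in lower case.
CALR: CCAATgatggtcgaCCACG
CANX: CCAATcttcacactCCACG
XBP1: CCAATcgcggagggCCACG
PDIA6: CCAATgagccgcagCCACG
ERO1B: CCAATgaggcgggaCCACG

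Of the 34 measured ER genes with a promoter window, 7 (20.6%) held an exact ERSE and 3 (8.8%) an exact ERSE-II, against 0.134% and 0.144% of the 9711 measured genes with a window. The measured genes include the ER genes, which are 7 of the 13 with an ERSE and 3 of the 14 with an ERSE-II. Over all 35116 windows the shares were 0.0769% and 0.0541%. The difference in shares was not tested. The 10 genes with either element had a median log2 fold change of 0.10, from -0.17 for PDIA6 to 0.60 for SDF2L1, and 4 of them had negative values. The 24 genes with neither had a median of 0.00, from -0.31 for UGGT1 to 0.38 for SEC61A1. The unfolded protein response element TGACGTGG, whose reverse complement shares CCACG with both ERSE forms, was found on either strand for HYOU1, SEC62, SSR3 and SSR4 (11.8%, against 1.27% of measured genes). In HYOU1 it overlaps an ERSE-II. The amino acid response letters TGATGNAA, bound by ATF4 with a C/EBP protein, were found only for HERPUD1 of these genes (2.9%, against 3.44%). A match is a description of the window's letters and was not tested as a binding site.

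**Figure D3:**
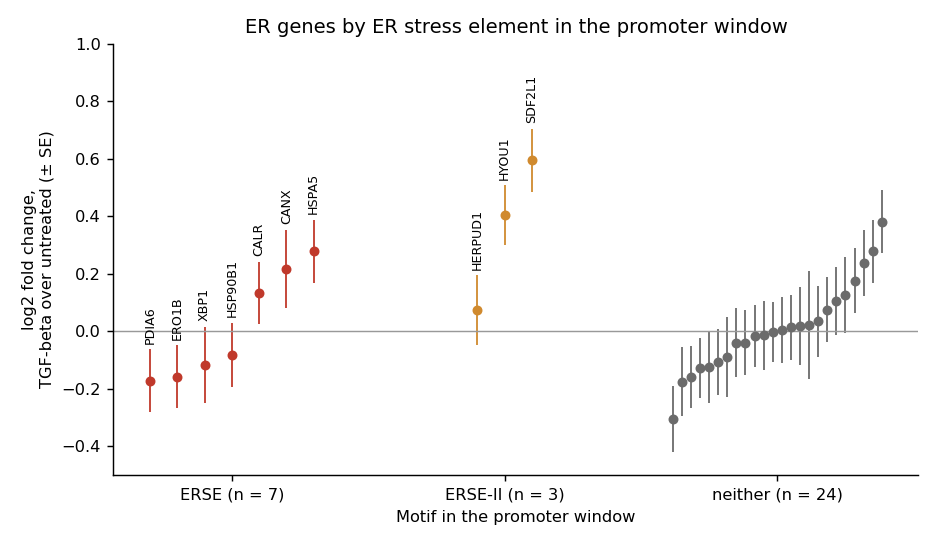
Points are the log2 fold change of TGF-beta over untreated (± SE) of ER genes whose promoter window holds an exact ERSE (7 genes), an ERSE-II (3 genes) or neither (24 genes). Genes with an element lie on both sides of 0, from PDIA6 at -0.17 to SDF2L1 at 0.60.

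In the lectin cycle, which holds glycoproteins in the ER until they fold, 0 of 3 genes passed, and the values pointed in different directions. At an unadjusted p under 0.05, 1 gene was lower (33.3%, against 8.60% of all genes). CALR (calreticulin), the soluble lectin, had intensities of 1465 and 1338 in TGF-beta-treated cells, against 1276 and 1277 in untreated cells. Its TGF-beta arrays were both higher, with a log2 fold change of 0.13 ± 0.11 (SE, adjusted p = 0.587). All 4 other probe sets of CALR were higher on both TGF-beta arrays too, at 0.14, 0.08, 0.28 and 0.41, the last with an unadjusted p of 0.00581 in a fit over all probe sets.

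CANX (calnexin), the membrane-bound lectin, had intensities of 3588 and 4020.4 in TGF-beta-treated cells, against 2943 and 3631 in untreated cells. The groups overlapped, the log2 fold change was 0.22 ± 0.14 (SE, adjusted p = 0.462), and its other probe sets gave 0.06 and -0.02. UGGT1, the folding sensor that returns misfolded glycoproteins to the lectins, had the most negative value of the ER genes, with 232.8 and 247.2 in TGF-beta-treated cells, against 278.5 and 316.0 in untreated cells. The groups did not overlap, and the log2 fold change was -0.31 ± 0.12 (SE, adjusted p = 0.225), a ratio of 0.808.

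Among the protein disulfide and prolyl isomerases 0 of 9 genes passed, none had an unadjusted p under 0.05, and the median was -0.002. P4HB (protein disulfide isomerase, also a subunit of collagen prolyl hydroxylase) was the highest, with 3363 and 3243 in TGF-beta-treated cells, against 2626 and 2994 in untreated cells. Its groups did not overlap, and its log2 fold change was 0.24 ± 0.11 (SE, adjusted p = 0.335), against 0.15 for its other probe set. PDIA3 (ERp57), which works with the lectins, stood at 0.00 ± 0.13 and PDIA4 (ERp72) at 0.08 ± 0.11 (SE), and in both the groups overlapped.

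PDIA6 was the lowest of the isomerases, with 3329.8 and 3110.2 in TGF-beta-treated cells, against 3758 and 3502 in untreated cells. Both TGF-beta arrays were lower, by a log2 fold change of -0.17 ± 0.11 (SE, adjusted p = 0.463). Its 4 probe sets disagreed in direction. The others gave -0.22, 0.10 and -0.29, and the positive one had both TGF-beta arrays above both untreated arrays. PDIA5 had intensities of 1368 and 1329 in TGF-beta-treated cells, against 1495 and 1453 in untreated cells, also without overlap, for a log2 fold change of -0.13 ± 0.10 (SE, adjusted p = 0.585).

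ERO1A and ERO1B, the oxidases that recharge protein disulfide isomerase, were both measured, and the difference between them was not tested. ERO1B had intensities of 78.3 and 75.4 in TGF-beta-treated cells, against 89.8 and 81.9 in untreated cells, a log2 fold change of -0.16 ± 0.11 (SE, adjusted p = 0.508) with no overlap. ERO1A had intensities of 137.0 and 138.0 in TGF-beta-treated cells, against 152.9 and 120.8 in untreated cells, and its log2 fold change of 0.02 ± 0.14 was far under the gap between its untreated arrays. The prolyl isomerases PPIB (cyclophilin B) and FKBP2 stood at -0.00 ± 0.10 and -0.02 ± 0.11 (SE). The 4 arrays of PPIB ran from 6189 to 6489 in intensity, with the groups overlapping.

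Of 8 translocation genes 0 passed, and 1 (12.5%, against 9.35% of all genes) was higher at an unadjusted p under 0.05. That gene was SEC61A1, the pore-forming subunit of the translocation channel, which had intensities of 984.9 and 966.2 in TGF-beta-treated cells, against 712.0 and 788.7 in untreated cells. The groups did not overlap, and the log2 fold change was 0.38 ± 0.11 (SE), a ratio of 1.30, with an adjusted p of 0.128. The other 7 measured translocation genes had log2 fold changes from -0.12 (SEC62) to 0.01 (SSR2), each with overlapping groups.

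The partner subunit SEC61B had intensities of 7849.8 and 7997 in TGF-beta-treated cells, against 7368 and 8692 in untreated cells, for a log2 fold change of -0.01 ± 0.12 (SE). SEC62 and SEC63, which serve post-translational translocation, stood at -0.12 ± 0.12 and -0.04 ± 0.12. SSR1, SSR2, SSR3 and SSR4, the 4 subunits of the translocon-associated protein complex, had values of 0.00 ± 0.12, 0.01 ± 0.11, -0.11 ± 0.12 and -0.04 ± 0.11 (SE). The 4 values lay within 1 SE of 0. The median of the 8 translocation genes was -0.03, with 3 of 8 positive. It was 0.0035 after quantile normalization, with 5 positive, and -0.10 after subtraction of array medians, with 1 positive. Whether SEC61A1 differed from its partners was not tested.

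Of the degradation genes 0 of 5 passed, none had an unadjusted p under 0.05, and the median was -0.09. EDEM1, a lectin that hands misfolded glycoproteins over for degradation, had intensities of 190.6 and 186.6 in TGF-beta-treated cells, against 196.2 and 231.2 in untreated cells, a log2 fold change of -0.18 ± 0.12 (SE, adjusted p = 0.505). DERL2, a derlin of the retrotranslocation complex, had intensities of 1330.3 and 1426 in TGF-beta-treated cells, against 1588 and 1492 in untreated cells, a log2 fold change of -0.16 ± 0.11 (SE, adjusted p = 0.501). In both genes the TGF-beta arrays were the lower ones without overlap. DERL1, its relative, had the opposite order at 2264 and 2313 in TGF-beta-treated cells, against 2199.8 and 2201 in untreated cells. That difference is 0.06 ± 0.10 on the log2 scale (SE), and the other probe set of DERL1 gave -0.08.

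HERPUD1, which organises the degradation complex, had intensities of 1799.8 and 1579 in TGF-beta-treated cells, against 1692 and 1517 in untreated cells. The groups overlapped and the log2 fold change was 0.07 ± 0.12 (SE), a value that was -0.003 after subtraction of array medians, -0.02 without TGF-beta array 1 and -0.005 without untreated array 2. SEL1L, the adaptor of the ubiquitin ligase complex, stood at -0.09 ± 0.14 (SE), and its 3 other probe sets gave -0.25, 0.07 and 0.05.

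The sensors and XBP1 had overlapping groups in all 4 genes, and none had an unadjusted p under 0.05. ATF6 had intensities of 205.5 and 212.4 in TGF-beta-treated cells, against 209.6 and 179.7 in untreated cells, a log2 fold change of 0.11 ± 0.12 (SE, adjusted p = 0.707) that was -0.004 without untreated array 2. ERN1 lay below the median probe set, at 45.7 and 39.0 in TGF-beta-treated cells, against 41.8 and 35.8 in untreated cells, with a log2 fold change of 0.13 ± 0.13 (SE). XBP1 had intensities of 2825 and 2702 in TGF-beta-treated cells, against 3344 and 2689 in untreated cells, a log2 fold change of -0.12 ± 0.13 (SE, adjusted p = 0.709) that turned to 0.04 without untreated array 1. The arrays measure total XBP1 transcript as this probe set reads it, and splicing by IRE1 was not measured.

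EIF2AK3 (PERK) had the widest spread of the ER genes, at 655.1 and 749.5 in TGF-beta-treated cells, against 566.5 and 840.6 in untreated cells. The untreated arrays differed by 0.57 on the log2 scale, and both TGF-beta arrays lay between them. Its log2 fold change was 0.02 ± 0.19 (SE), with a 95% interval from -0.42 to 0.46, and it was -0.26 without untreated array 1 and -0.08 without TGF-beta array 2.

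**Figure D4:**
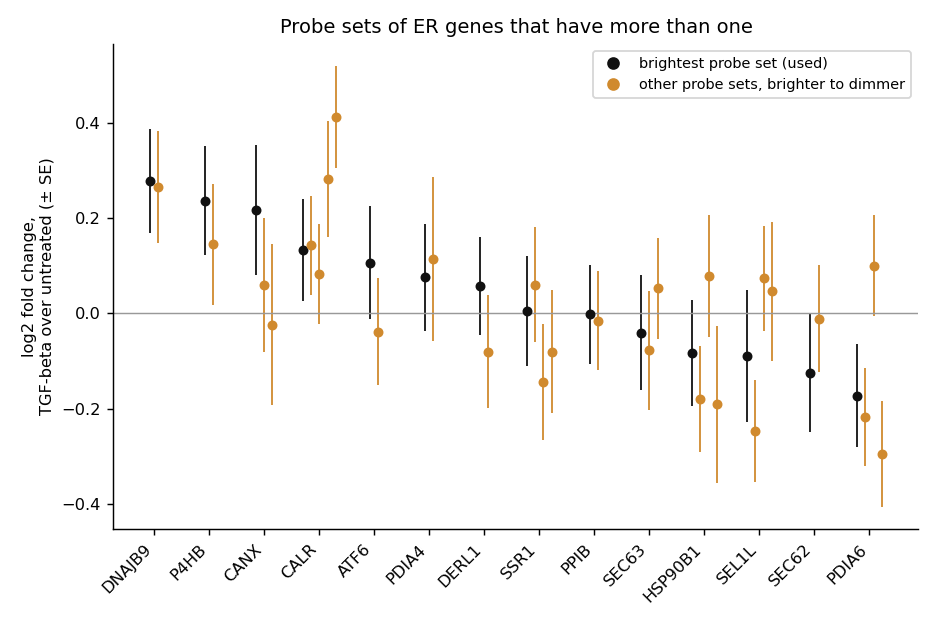
Log2 fold changes of TGF-beta over untreated (± SE, fit over all probe sets) are shown for the 14 ER genes with more than 1 probe set; black marks the brightest probe set and orange the others, from brighter to dimmer. All 5 probe sets of CALR are positive, and 1 of the 4 of PDIA6, at 0.10, is opposite in sign to the rest.

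Of the 36 ER genes, 14 had more than 1 probe set. Of their 27 other probe sets, 17 had the sign of the brightest and 10 the opposite sign. CALR, DNAJB9, P4HB, PDIA4, PPIB and SEC62 had the same sign in every probe set. For SDF2L1, HYOU1, SEC61A1, UGGT1 and HSPA5 a single probe set carries the value, and those of SDF2L1, HYOU1, SEC61A1 and UGGT1 are of a kind that can match more than 1 transcript.

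Genes beside the 40 were taken from 7 further lists of the pathway, with 142 genes measured. In 6 of these lists, which cover 128 genes, 0 passed in either direction, and the median was 0.00. At an unadjusted p under 0.05 there were 14 higher genes and 13 lower ones, which is 10.9% and 10.2%, close to the 9.35% and 8.60% of all genes. The 7 lists and the 6 groups of ER genes are shown in the plot of values by list.

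**Figure D5:**
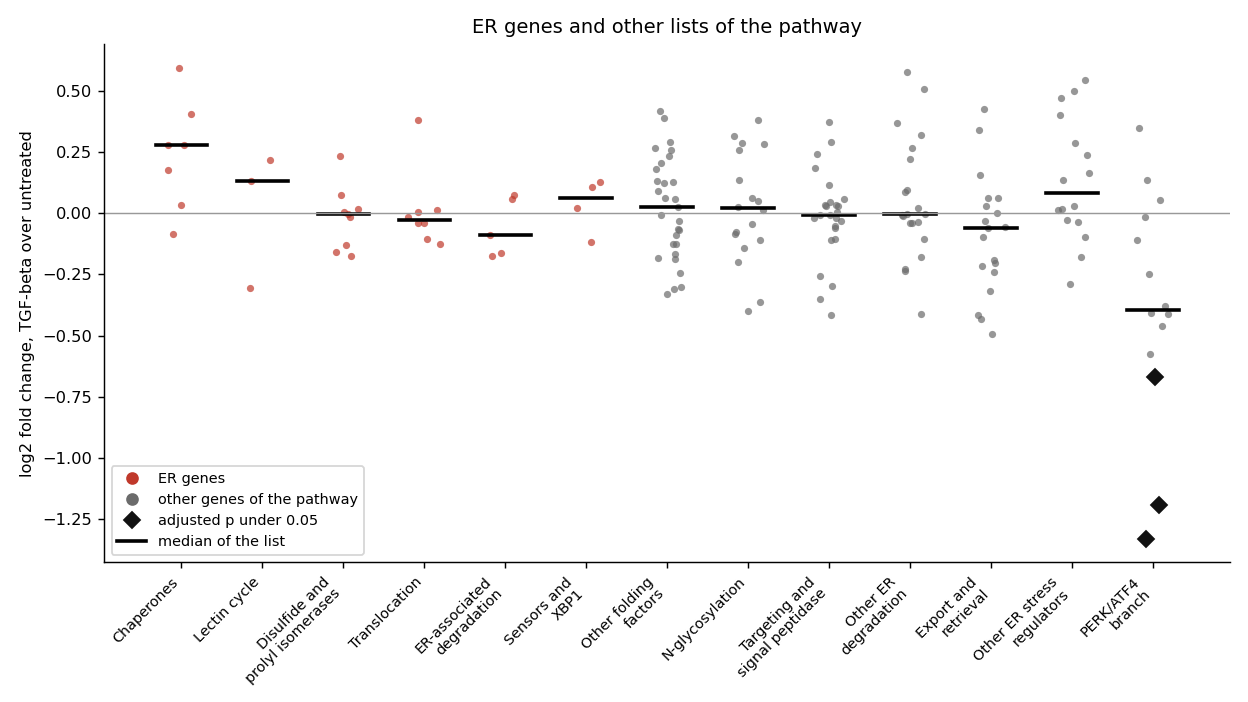
Each point is a gene's log2 fold change of TGF-beta over untreated, in red for the 6 groups of ER genes and in grey for 7 other lists of the pathway; bars are list medians and black diamonds mark an adjusted p under 0.05. The 3 diamonds, NUPR1, ASNS and DDIT3, are all in the PERK/ATF4 branch, whose median is -0.39 against 0.28 for the chaperones.

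Counted at an unadjusted p under 0.05, the other folding factors had 2 higher and 3 lower genes of 29. Those are 6.90% and 10.3%, against 9.35% and 8.60% of all genes. The smallest p was that of TOR1B, an ER ATPase, at 0.39 ± 0.12 (SE, adjusted p = 0.139). N-glycosylation had 1 higher and 1 lower of 18 (5.56% each), with DPM3, a subunit of dolichol phosphate mannose synthase, at -0.40 ± 0.12 (adjusted p = 0.135). Protein targeting and signal peptidase had 1 higher and 3 lower of 25, with EMC2, a subunit of the ER membrane insertase, at -0.42 ± 0.13 (adjusted p = 0.165). None of these lists had a median beyond 0.03 in size.

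By the same count, the other degradation factors had 4 higher genes and 1 lower gene of 21. Among all genes, 9.35% were higher and 8.60% lower. AUP1, which recruits the ubiquitin-conjugating enzyme to the degradation complex, had intensities of 1183 and 1168 in TGF-beta-treated cells, against 859.3 and 721.0 in untreated cells, a log2 fold change of 0.58 ± 0.12 (SE, adjusted p = 0.0651). It passed, with an adjusted p of 0.0299, without untreated array 1, and over its 9 alternatives without a replicate block the adjusted p ran from 0.0299 to 0.358. The others higher at an unadjusted p under 0.05 were NPLOC4 and UFD1, cofactors of the extraction ATPase, and VCP, that ATPase itself. Their values were 0.51 ± 0.12, 0.27 ± 0.10 and 0.37 ± 0.13 (SE). None of them passed (limma adjusted p of 0.0921, 0.241 and 0.208). EDEM3 was lower, at -0.41 ± 0.11 (SE, adjusted p = 0.117). NPLOC4, UFD1, VCP and EDEM3 were named after their values were seen.

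ER export and retrieval had 2 higher and 4 lower of 19 (10.5% and 21.1%, against 9.35% and 8.60% of all genes). In that list BCAP31, a cargo receptor of the ER membrane, stood at 0.42 ± 0.12 (SE, adjusted p = 0.112). Other regulators of ER stress had 4 higher and 1 lower of 16, where 9.35% of all genes were higher and 8.60% lower. Among these regulators WFS1 (wolframin, an ER membrane protein) stood at 0.54 ± 0.12 (SE, adjusted p = 0.0769).

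The PERK/ATF4 branch was the list with calls. Of 14 measured genes 3 fell, 0 rose and 11 did not pass, and the median log2 fold change was -0.39, against -0.01 over all genes. The 3 that fell compare with 0.567% of all genes called lower. Both TGF-beta arrays lay below both untreated arrays in 8 of the 14 (57.1%, against 25.9% of all genes). On the log2 scale NUPR1, a stress-induced nuclear protein, fell by 1.33 ± 0.11 (SE), and ASNS, asparagine synthetase, fell by 1.19 ± 0.11, each with an adjusted p of 0.0101. DDIT3, the transcription factor CHOP, had intensities of 157.1 and 179.5 in TGF-beta-treated cells, against 277.1 and 257.2 in untreated cells, and fell by 0.67 ± 0.12 (SE, adjusted p = 0.0498). The call of DDIT3 was lost in 6 of 10 alternatives without a replicate block, with adjusted p from 0.0269 to 0.330. The calls of NUPR1 and ASNS were lost with either TGF-beta array left out, where 0 of all genes were called (limma; 1326 and 1563 at an unadjusted p under 0.05).

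ATF4 itself had intensities of 9192 and 8782 in TGF-beta-treated cells, against 12496 and 11432 in untreated cells. The groups did not overlap, and its log2 fold change was -0.41 ± 0.11 (SE, adjusted p = 0.109). PPP1R15A (GADD34), the phosphatase subunit that ends the translational block, was the highest of the list, at 0.35 ± 0.16 (SE, adjusted p = 0.303). The chaperones of the ER lumen and the PERK/ATF4 genes had medians of opposite sign, 0.28 and -0.39, under each of the scalings tried. Both lists were drawn up with earlier results of these data known, and the difference between the lists was not tested.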

How the data were processed

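The authors deposited probe set intensities on a linear scale for 22215 probe sets on 4 arrays. Of the tools, the affy package is named in the submitters' processing notes; the sources used here give neither its settings nor a genome build. The deposited intensities had nearly equal quartiles on the 4 arrays and were used without further scaling, after conversion to log2. Of the probe sets, 19724 name 1 gene, 568 several and 1923 none. Symbols were updated by Entrez number through RefSeq (GRCh38.p14). The brightest probe set stood for each of 12165 genes.

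Treated and untreated cells were compared in limma (3.58.1, R 4.3.3) by lmFit and eBayes on all genes, and p-values were adjusted by Benjamini-Hochberg. Moderation gave 7.41 degrees of freedom per gene. The fit was tested on simulated data. The number of arrays limits the precision. Alternatives were other scalings, an offset, a filter on dim probe sets, other probe set rules, a replicate block and each array left out. Plots used matplotlib 3.10.9 (Python 3.11.15).

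The ER genes, the lists and their grouping were chosen with earlier results of these data known. Genes named were the 14 ER genes with the smallest p, the extremes of each group, 9 key genes (among them HSPA5, XBP1 and the sensors), genes whose probe sets disagree past an unadjusted p of 0.05, and, in each other list, called genes and the smallest p. Further ER genes were named to account for every member. Others were named after their values were seen.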

Additional observations from a re-analysis of the deposited data

How the results depend on the processing

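The count of ER genes called, 0, was 1 (SDF2L1) with the mean of all probe sets of a gene, and 0 to 1 with each array left out. The labels do not say whether same-numbered arrays belong together. Over all genes, same-numbered deviations from the group means correlated at 0.01, which cannot settle whether such arrays share a culture or batch. With the replicate number as a block 2 ER genes were called, HYOU1 and SDF2L1 (adjusted p 0.0389 and 0.000971), and 1229 of all genes. In the block fit the SEs of the named genes were nearly equal. Those of HYOU1, SDF2L1 and EIF2AK3 were 0.135, 0.135 and 0.136, against 0.104, 0.109 and 0.187 in the main fit. Over all genes the count of 149 was 311 after subtraction of array medians (93 higher and 218 lower, against 80 and 69), 53 after quantile normalization, 51 with an offset of 32 before log2, and 0 to 523 with each array left out. It was 0 without either TGF-beta array (limma; 1326 and 1563 genes at an unadjusted p under 0.05), 345 without untreated array 1 and 523 without untreated array 2. The median log2 fold change of the ER genes, 0.01, was -0.0677 after subtraction of array medians, where that of all genes was -0.08, and -0.0254 to 0.0313 with each array left out. Of 22 ER genes named by rule, 17 kept their direction in every alternative that gave them a value (11 alternatives, of which the one-transcript probe sets gave no value for 10 of the 22). ATF6 ran from -0.0044 to 0.217 with each array left out, EIF2AK3 from -0.263 to 0.307, HERPUD1 from -0.0206 to 0.168 and XBP1 from -0.276 to 0.0392. After subtraction of array medians EIF2AK3 was -0.0544 and HERPUD1 -0.0028. PDIA6 was 0.0993 with probe sets of a one-transcript kind only, an alternative chosen after seeing the data, which left 21 ER genes and 0 calls (1 at an unadjusted p under 0.05). The cause of these changes was not tested.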
